A study of Mus musculus with 24 samples.

Results

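The 10 mouse genes described here, Bpifa3, Car2, Dydc2, Cyp2a12, Tmod4, Glt6d1, Scgn, Lelp1, Odf3b and Etv2, were picked for their large falls in germ cells of Nutm1 KO males. They stand among 12705 features tested and are read by 17 of the 45281 probes of an Illumina bead array. All 10 genes and 14 of their 17 probes passed the detection filter, a minimum of 3 among the 12 direct arrays with a detection p below 0.01. The genes were chosen by the size of the fitted log2 difference between KO and WT in either stage, so that difference is given as a description, with no test.

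The groups were round spermatids and spermatocytes from WT testes and the same stages from testes labelled Nutm1_KO, all from adult males on the B6/129sv background. The design text speaks of a knock down of Nut, and how the gene was altered is not given in the sources used here. Cells came from 3 sedimentations on an albumin gradient per genotype, each a pool of 2 WT or 3 KO mice, so the fractions are enriched and not pure, and the later fraction also takes in early elongating spermatids per the labels. Replicates 1 to 3 of a group are these fractionations and are the values used below. Replicates 4 to 6 are mixtures of their RNA. In fractions of this kind, fewer cells of a type and less RNA per cell cannot be told apart, and the p-values measure the spread between pools of animals.

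Nutm1 encodes Nut, a nuclear protein of haploid germ cells that binds the acetyltransferase p300 and is known for its part in the histone hyperacetylation that precedes the exchange of histones for protamines. Round spermatids transcribe many genes that are silent or weakly active elsewhere, often from short promoters specific to the testis, and store much of the RNA for the elongating stage. Several of the 10 genes are better known from other organs: Car2 from red cells and kidney, Cyp2a12 from liver, Tmod4 from skeletal muscle, Scgn from pancreatic islets and Etv2 from the embryonic precursors of blood and endothelium.

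RefSeq start site windows, 250 bases before to 50 after the annotated start on build GRCm38.p6, were on hand for 9 of the 10 genes, with a second window for Dydc2. Those of Bpifa3 and Cyp2a12 are shown because neither gene was detected on any KO array, mixtures included (Tmod4 was detected on no direct KO array and on 1 mixture). The windows of Dydc2 and of its neighbour Dydc1 are shown because 1 of the 2 annotated starts of Dydc2 lies 126 bases from that of Dydc1, on the opposite strand, with 27 bases between the windows. The other Dydc2 start lies 3703 bases from that of Dydc1, and the array does not show which start the measured RNA uses. Bpifa3 lies at chr2:154130086-154130385 (+), Cyp2a12 at chr7:27028840-27029139 (+), Dydc2 at chr14:41072988-41073287 (-) and Dydc1 at chr14:41072661-41072960 (+). Each is written 5′ to 3′ on the strand of its gene, and in the windows of the 3 listed genes capitals mark a match to a searched motif on either strand.
Bpifa3: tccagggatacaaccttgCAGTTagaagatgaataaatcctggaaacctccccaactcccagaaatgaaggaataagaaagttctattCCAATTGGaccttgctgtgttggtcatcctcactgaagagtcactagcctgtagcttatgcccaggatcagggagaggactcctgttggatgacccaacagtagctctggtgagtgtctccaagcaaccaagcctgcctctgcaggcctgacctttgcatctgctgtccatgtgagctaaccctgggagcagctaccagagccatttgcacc
Cyp2a12: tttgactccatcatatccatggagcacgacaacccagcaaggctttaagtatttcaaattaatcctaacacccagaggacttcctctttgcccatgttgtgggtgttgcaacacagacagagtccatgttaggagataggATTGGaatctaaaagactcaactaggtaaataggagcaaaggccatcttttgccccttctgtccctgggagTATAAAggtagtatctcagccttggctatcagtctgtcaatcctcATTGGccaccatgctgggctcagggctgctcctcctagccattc
Dydc2: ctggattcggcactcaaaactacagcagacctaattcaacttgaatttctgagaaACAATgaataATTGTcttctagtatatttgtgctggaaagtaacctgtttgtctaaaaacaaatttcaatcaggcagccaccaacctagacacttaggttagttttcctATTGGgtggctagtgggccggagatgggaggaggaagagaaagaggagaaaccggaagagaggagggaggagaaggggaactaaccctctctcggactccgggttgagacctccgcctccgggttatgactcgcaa
Dydc1: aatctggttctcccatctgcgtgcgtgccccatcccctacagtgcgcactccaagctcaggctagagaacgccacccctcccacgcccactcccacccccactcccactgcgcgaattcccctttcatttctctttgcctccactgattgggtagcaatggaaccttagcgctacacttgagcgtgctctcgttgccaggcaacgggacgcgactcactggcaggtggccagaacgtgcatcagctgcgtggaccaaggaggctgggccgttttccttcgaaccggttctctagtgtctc

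The motifs searched, on both strands, were the CREM core TGACG, bound by CREM and its relatives, the TATA box as TATAAA, the GC box as GGGCGG, the CCAAT box, the RFX motif as GTTGCC, the SOX motif as ACAAT and the MYB motif as AACTG. The CREM core followed by T was counted on its own as the longer form, and a match to it counts for both. A match to the CREM core occurred in 1 of the 9 genes with a window, Etv2, against 20.8% of all 32851 windows, and the longer form in 0 of 9 against 7.51%. Cyp2a12 alone of the 9 held TATAAA, at position -39 from the start, against 13.6% of all windows. A CCAAT box was found in 5 genes, Bpifa3, Cyp2a12, Dydc2, Glt6d1 and Etv2 (37.4% of all windows). The MYB motif matched in 6 genes (44.8%) and the SOX motif in 3 (31.0%). A gene counts if either of its windows matches, while the shares are of single windows. By window, the MYB motif matched in 6 of 10 and the SOX motif in 4 of 10. The MYB match of Dydc2 lies only in its second window, which is not printed. The GC box (35.7%) and the RFX motif (12.5%) each matched in 1 gene, Scgn. No motif was shared by all 9, and the window of Lelp1 held none of the searched motifs. The GC content of the members' windows ran from 42.33% in Glt6d1 to 55.67% in Odf3b, against a median of 52.67% over all windows. A match describes letters in a window and is not a measured binding site.

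Levels are given on the log2 scale after background correction and normalization, in the order of replicates 1, 2 and 3. Values of the 10 genes on arrays that did not detect them lay between 4.43 and 5.49, and the lowest level among detected probes was 5.41 to 5.93, depending on the array. Where a group was detected on none of its arrays, the fold is a lower bound against the dimmest detected signal of those arrays. One standard error per gene serves all its differences, because the 4 groups of 3 arrays were fitted together. The probe of Nutm1, whose place relative to the altered part is not known here, gave log2 levels of 8.52, 8.40 and 8.18 in WT round spermatids against 6.81, 6.75 and 7.03 in KO, with a mean of 6.27 in WT and 5.63 in KO spermatocytes, and was detected on all KO round spermatid arrays and on 2 of 3 KO spermatocyte arrays.

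The order of the groups was the same for all 10 genes: WT round spermatids were highest, WT spermatocytes came next, and both KO groups were lowest, without overlap between these 3 levels on any array. WT round spermatids lay above WT spermatocytes without overlap for 30.9% of all features. All 10 genes were detected on every WT array of both stages. In KO round spermatids, 5 of the 10 were detected on all 3 arrays, Car2 on 2, Glt6d1 on 1, and Bpifa3, Cyp2a12 and Tmod4 on none. In KO spermatocytes, Lelp1 and Odf3b were detected on all 3 arrays, Car2 on 1, and the other 7 genes on none. Non-overlapping arrays with KO below WT were seen for 17.3% of all features in round spermatids and 5.30% in spermatocytes, and features called lower made up 7.99% and 0.645%. Since this contrast chose the genes, nothing is read from 10 of 10 beside these shares.

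**Figure D1:**
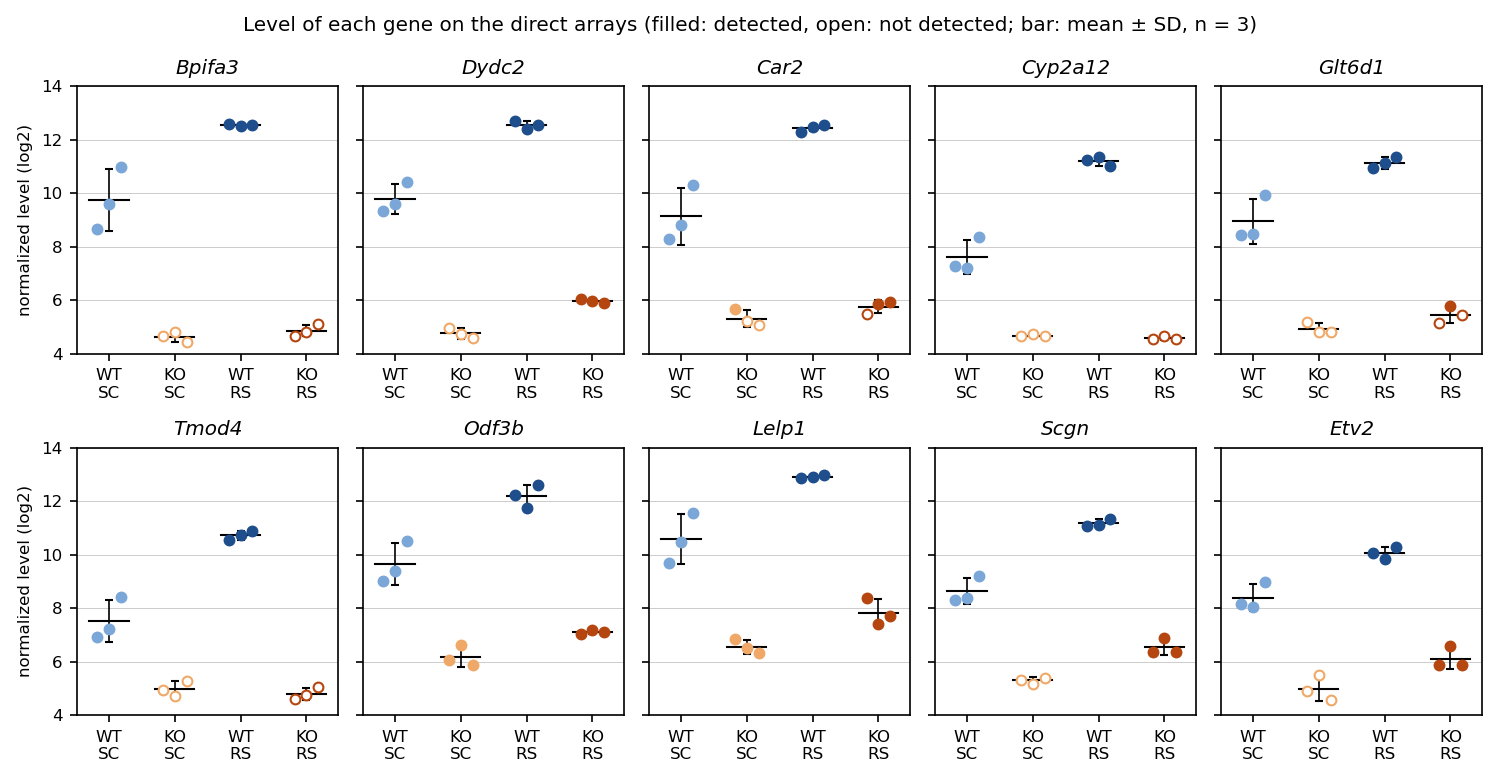
Normalized log2 level (vertical axis) of each of the 10 genes on the 3 direct arrays of each group (WT and KO, SC spermatocytes and RS round spermatids), with points in the order of replicates 1 to 3, the mean and SD in black, and open points where the array did not detect the gene. In every panel the WT round spermatid points are highest and the KO points of both stages are lowest, and Bpifa3, Cyp2a12 and Tmod4 have only open KO points.

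Among the secreted and structural proteins, Bpifa3 belongs to the lipid-binding family of the bactericidal/permeability-increasing protein. Its log2 levels were 12.58, 12.51 and 12.53 in WT round spermatids and 4.67, 4.80 and 5.09 in KO. The WT arrays agree within 0.07, and no KO array detected the RNA. In spermatocytes the log2 levels were 8.66, 9.59 and 10.97 in WT and 4.64, 4.82 and 4.43 in KO. The WT spermatocyte arrays spread over 2.32, the widest range of any of the 10 genes, and yet the lowest lies far above every KO array. The log2 difference between KO and WT was -7.68 (SE 0.42, at least 131-fold lower) in round spermatids and -5.11 (at least 17.5-fold lower) in spermatocytes. These sizes rest on the background correction: without it the log2 differences of Bpifa3 were -5.41 and -2.88.

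Odf3b encodes a protein of the outer dense fibre family, named after the fibres that sheathe the axoneme of the sperm tail. On the log2 scale, its levels were 12.23, 11.75 and 12.58 in WT round spermatids and 7.02, 7.17 and 7.10 in KO. Odf3b therefore stayed measurable in KO cells, on every direct array of both stages. Spermatocytes had log2 levels of 8.99, 9.40 and 10.50 in WT and 6.06, 6.61 and 5.88 in KO. The log2 differences were -5.09 (SE 0.35, 34.1-fold) and -3.45 (10.9-fold). The second probe of Odf3b gave a log2 difference of -5.12 (34.9-fold) in round spermatids and -2.66 in spermatocytes (at least 4.49-fold), where it was detected on no KO array.

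Lelp1 is a small proline-rich gene named for its likeness to the late cornified envelope genes of skin, beside which it lies. It stayed above detection on every direct KO array. Its log2 levels were 12.85, 12.89 and 12.97 in WT round spermatids and 8.38, 7.41 and 7.68 in KO. KO replicate 1 was the highest of the KO arrays in both stages. The log2 levels in spermatocytes were 9.70, 10.48 and 11.55 in WT and 6.84, 6.51 and 6.32 in KO. KO differed from WT by log2 values of -5.08 (SE 0.39, 33.8-fold) and -4.02 (16.2-fold).

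Tmod4, a tropomodulin, caps the pointed ends of actin filaments in muscle. WT round spermatids gave log2 levels of 10.53, 10.75 and 10.87, and KO gave 4.59, 4.75 and 5.03. No direct KO array of either stage detected it. In spermatocytes WT gave log2 levels of 6.93, 7.22 and 8.42 and KO gave 4.94, 4.73 and 5.28. The fitted log2 differences by stage were -5.92 (SE 0.32, at least 36.9-fold) and -2.54 (at least 3.75-fold). Both other probes of Tmod4 were also undetected on all KO arrays, with log2 differences in round spermatids of -5.42 (at least 25.3-fold) and -3.83 (at least 7.27-fold).

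Among the enzymes, Car2 encodes the cytosolic carbonic anhydrase that interconverts CO2 and bicarbonate. Its log2 levels were 12.29, 12.48 and 12.52 in WT round spermatids and 5.48, 5.86 and 5.92 in KO. KO replicate 1 was below detection and the other two were just above it. In spermatocytes the log2 levels were 8.27, 8.80 and 10.30 in WT and 5.65, 5.21 and 5.06 in KO, of which only replicate 1 was detected. The log2 differences were -6.67 (SE 0.40, 102-fold, with 2 of 3 KO arrays detected) and -3.81, for which no fold is given because 1 of 3 KO arrays detected the gene and the KO mean lies below the lowest detected level of those arrays. The other probe of Car2 was detected on none of the 12 direct arrays, WT included, and so carries no information on the fall.

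Red cells hold Car2, so their markers were read beside it. The mean log2 level of the erythroid list (3 of 9 genes measured) ran from 8.88 to 9.94 in WT round spermatids and from 7.66 to 8.81 in KO, ranges that do not overlap, and none of the 3 passed the test. In spermatocytes, where Car2 also differed, the erythroid mean was 5.86 to 6.26 in WT and 5.37 to 5.98 in KO. These ranges overlap, and again none of the 3 passed. Of all features, 7.99% were called lower in round spermatids and 0.645% in spermatocytes. The WT spermatocyte array with the highest Car2, replicate 3, had an erythroid mean of 6.03, between those of the other two. The part of red cells in the Car2 difference was not tested.

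Cyp2a12 is a cytochrome P450, an oxidase of the endoplasmic reticulum. For this gene the log2 levels were 11.23, 11.33 and 11.01 in WT round spermatids and 4.56, 4.65 and 4.53 in KO. All KO arrays of both stages lay at background. Spermatocytes had log2 levels of 7.25, 7.20 and 8.34 in WT and 4.65, 4.72 and 4.64 in KO. KO differed from WT by log2 values of -6.61 (SE 0.26, at least 51.3-fold) and -2.93 (at least 3.96-fold). Its close relatives Cyp2a4 and Cyp2a5 were detected on 0 of 12 direct arrays.

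Glt6d1 is a member of the glycosyltransferase family that includes the enzyme of the ABO blood groups. Its log2 levels were 10.92, 11.13 and 11.36 in WT round spermatids and 5.12, 5.78 and 5.46 in KO, with detection on KO replicate 2 alone. The log2 levels in spermatocytes were 8.43, 8.49 and 9.92 in WT and 5.18, 4.79 and 4.82 in KO. WT replicate 3 stands more than 1 log2 unit above both other WT spermatocyte arrays. The fitted log2 differences by stage were -5.68 (SE 0.34) and -4.01 (at least 10.05-fold). No fold is given for round spermatids, where 1 of 3 KO arrays detected the gene and the KO mean lies below the lowest detected level of those arrays.

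Of the genes named for regulatory roles, Dydc2 encodes a protein with a DPY30 motif, a small dimerization motif named after a subunit of histone H3 lysine 4 methyltransferase complexes. The first probe gave log2 levels of 12.69, 12.40 and 12.53 in WT round spermatids and 6.02, 5.96 and 5.91 in KO. The KO arrays agree closely and are all just above detection. In spermatocytes the log2 levels were 9.34, 9.58 and 10.41 in WT and 4.96, 4.74 and 4.57 in KO, where none was detected. The log2 differences were -6.58 (SE 0.24, 95.6-fold) and -5.02 (at least 17.9-fold). The second probe of Dydc2 was detected on no KO array and gave log2 differences of -6.56 (at least 62.5-fold) and -3.55 (at least 5.67-fold).

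Etv2 is an ETS family transcription factor required in the mouse embryo to form blood and endothelial progenitors. Its RNA had log2 levels of 10.05, 9.83 and 10.29 in WT round spermatids and 5.89, 6.57 and 5.88 in KO. All KO round spermatid arrays still detected it. Spermatocytes had log2 levels of 8.17, 8.02 and 8.96 in WT and 4.88, 5.49 and 4.56 in KO, none of them detected in KO. KO differed from WT by log2 values of -3.95 (SE 0.31, 15.4-fold) and -3.40 (at least 6.80-fold). The fitted stage values lie closer together than for any other of the 10 genes. Because Etv2 was undetected in KO spermatocytes, the gap between its stages was not measured. Endothelial markers (5 of 8 measured) had mean log2 levels of 6.96 to 7.27 in WT and 6.74 to 7.12 in KO round spermatids, which overlap. Among them Vwf, which encodes von Willebrand factor, is named after its value was seen. It was called lower in KO round spermatids (log2 difference -1.25, limma adjusted p = 0.00862), 1 of 5 against 7.99% of all features. None of the 5 was called in spermatocytes, where 0.645% of all features were called lower. The part of endothelial cells in the Etv2 difference was not tested.

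Scgn encodes secretagogin, a calcium sensor with EF hands. Log2 levels of Scgn were 11.06, 11.11 and 11.33 in WT round spermatids and 6.36, 6.87 and 6.35 in KO, all detected. The log2 levels in spermatocytes were 8.30, 8.38 and 9.18 in WT and 5.33, 5.15 and 5.40 in KO, where no direct array detected it. The fitted log2 differences by stage were -4.64 (SE 0.24, 24.99-fold) and -3.33 (at least 8.03-fold). Both other probes of Scgn were detected on no array of any group.

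Over the 10 genes the median log2 difference between KO and WT was -5.80 in round spermatids, with a range from -7.68 to -3.95, and -3.63 in spermatocytes, from -5.11 to -2.54. Without background correction the members' medians were -4.22 and -2.11. Over all 12705 features the medians were 0.12 and 0.00. All 10 genes had the larger log2 difference in round spermatids. With 3 genes undetected in KO round spermatids and 7 in KO spermatocytes, only a bound on the fold was measured for those genes, and no test of the stages against each other is given for the 10 genes. Among the 694 named genes that were called lower in round spermatids, had no overlap and were detected on all WT arrays, the members hold ranks 1 to 5, 7, 10, 12, 15 and 29. The smallest member there is Etv2 (-3.95), and genes outside the 10 with larger falls include the cystatin-like gene Cstl1 (-5.61) and the kallikrein gene Klk1b5 (-5.08). Among the 66 such genes in spermatocytes the last member is Tmod4 (-2.54, rank 15), just ahead of Wnt3a (-2.49).

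**Figure D2:**
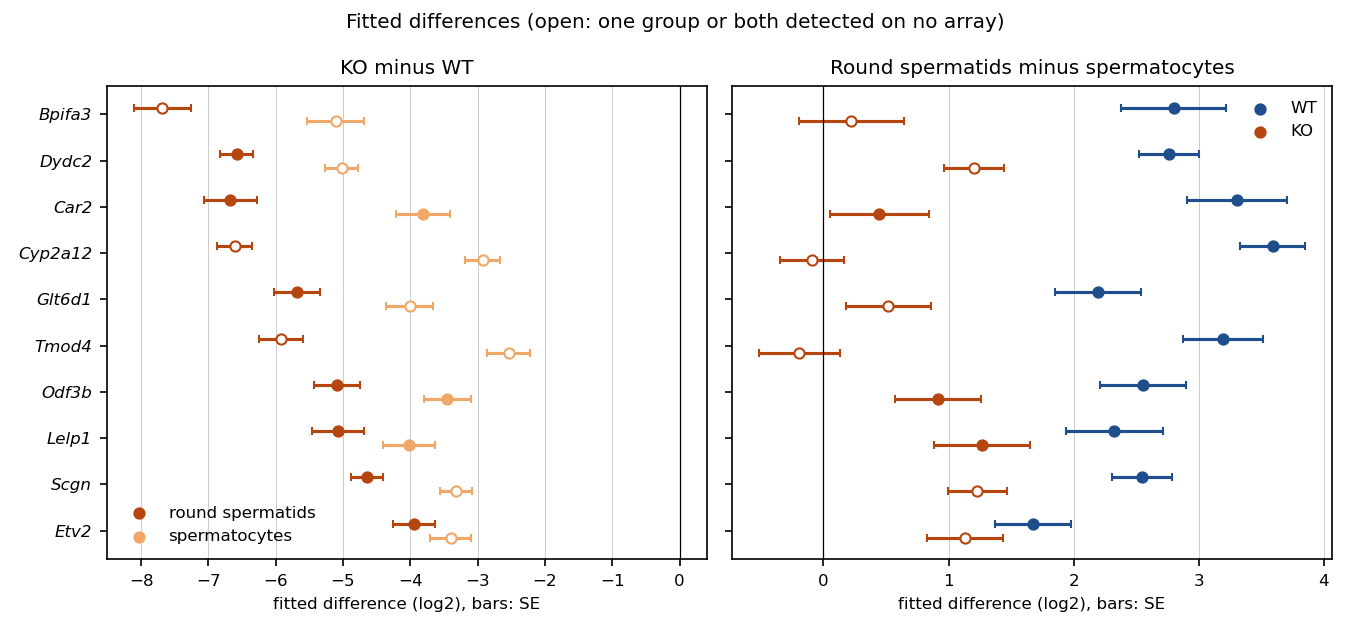
Fitted log2 differences with SE (horizontal axes) for the 10 genes, KO minus WT in each stage on the left and round spermatids minus spermatocytes in each genotype on the right. Open points mark differences in which 1 or both groups were detected on no array. KO minus WT runs from -7.68 to -2.54, and the stage difference lies between 1.68 and 3.59 in WT and between -0.19 and 1.27 in KO.

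In WT, all 10 genes were higher in round spermatids than in spermatocytes, by log2 differences of 1.68 for Etv2 to 3.59 for Cyp2a12 (median 2.66, limma with Benjamini-Hochberg adjustment, largest adjusted p = 0.000510). Across all features 28.4% were called higher in this comparison, with a median log2 difference of -0.12. The comparison uses the same WT round spermatid arrays as the one that chose the genes, so the count is no independent support. Bpifa3 rose 6.96-fold between the stages, Car2 9.90-fold, Cyp2a12 12.04-fold, Tmod4 9.16-fold and Glt6d1 4.57-fold.

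In KO, 5 of the 10 genes were called higher in round spermatids, against 26.4% of all features, again on arrays shared with the choice of genes. Scgn rose by a log2 difference of 1.23 (SE 0.24, adjusted p = 0.00130), Dydc2 by 1.20 (SE 0.24, adjusted p = 0.00166) and Etv2 by 1.13 (SE 0.31, adjusted p = 0.00875). These 3 were undetected in KO spermatocytes, and their folds are at least 1.88, 1.27 and 1.41. The call for Dydc2 rests on its first probe. Its second probe had a fitted log2 difference of 0.34 (SE 0.24) but was detected on no KO array, so it measured no stage difference in KO. Lelp1 rose by 1.27 (SE 0.39, adjusted p = 0.0163) and Odf3b by 0.91 (SE 0.35, adjusted p = 0.0435). For Odf3b, the second probe had a fitted log2 difference of 0.76 (SE 0.27), with no KO spermatocyte array detected. Lelp1 lost the call without KO round spermatid replicate 1 (adjusted p = 0.0698) or KO spermatocyte replicate 3 (0.0577), and Odf3b lost it without any single KO array other than spermatocyte replicate 2 (0.0759 to 0.138). The 5 are the genes detected on all 3 KO round spermatid arrays.

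The other 5 genes did not pass in KO. Car2 differed by 0.45 on the log2 scale (95% interval -0.42 to 1.31, adjusted p = 0.372) and Glt6d1 by 0.52 (95% interval -0.23 to 1.27, adjusted p = 0.227). Car2 was detected on 2 KO round spermatid arrays and 1 KO spermatocyte array, and Glt6d1 on 1 and 0. Both differences thus rest in part on background values and do not show equal levels. With the mixtures included, which reuse the same RNA, both were called higher (limma adjusted p = 0.0162 and 0.00411). Bpifa3, Cyp2a12 and Tmod4 were detected on no direct KO array of either stage, so a stage difference in KO was not measurable for them.

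For the 10 genes, the spread between arrays was widest in WT spermatocytes. Their median SD was 0.78 there, against 0.15 in WT round spermatids, 0.23 in KO round spermatids and 0.24 in KO spermatocytes. In all 10 genes replicate 3 was the highest WT spermatocyte array, and the mean log2 level of the genes was 8.40, 8.72 and 9.86 in replicates 1 to 3. Markers of round spermatids (13 of 15 measured) had mean log2 levels of 10.60, 10.84 and 11.98 on the same arrays, and those of later spermatids (8 of 10) 12.68, 13.06 and 13.60, so replicate 3 was highest in each. Without that array the median log2 difference of the 10 genes between KO and WT spermatocytes was -3.17. The part of spermatids in the spermatocyte fractions was not tested.

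The round spermatid markers were also read on the KO arrays. Their mean log2 level was 10.957, 10.969 and 10.999 in KO spermatocytes, above WT replicates 1 and 2 and below replicate 3. On the spermatocyte arrays the mean of the 10 genes was 5.10 to 5.31 in KO and 8.40 or more in WT. The part of spermatids in this difference was not tested. In the round spermatid fractions the marker mean was 12.56 to 12.75 in WT and 12.37 to 12.73 in KO. None of the 13 markers was called between KO and WT in either stage (median log2 difference -0.08 in round spermatids and -0.23 in spermatocytes). Of all features, 6.89% were called higher and 7.99% lower in round spermatids, and 0.189% and 0.645% in spermatocytes. With shares this small, no call among 13 markers says little, above all in spermatocytes. All 13 were called higher in round spermatids than in spermatocytes in both genotypes, against 28.4% of all features in WT and 26.4% in KO. The later spermatid mean was lower in KO round spermatids, at 13.87 to 13.98 against 14.25 to 14.36, with a median difference of -0.33 and 1 of 8 markers, the transition protein gene Tnp2, called lower (log2 difference -0.82, adjusted p = 0.0151) against 7.99% of all features.

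Other lists describe the fractions. Spermatocyte markers (13 of 18 measured) had mean log2 levels of 9.95 to 10.50 in the spermatocyte fractions and 10.03 to 10.32 in the round spermatid fractions. Between the WT stages, 5 of the 13 were called lower and 2 higher in round spermatids, against 31.9% and 28.4% of all features. Leydig cell markers (5 of 9) had means of 7.479 to 11.996 in the spermatocyte fractions and 5.66 to 7.62 in the round spermatid fractions. Macrophage markers (9 of 11) had means of 6.60 to 8.14 in KO and 6.21 to 7.02 in WT round spermatids. Sertoli cell markers (7 of 14) had means of 7.94 to 8.67 in KO and 8.16 to 8.75 in WT round spermatids. Of these 7, the cystatin genes Cst9 and Cst12, named after their values were seen, were called lower in KO round spermatids (log2 differences -1.38 and -1.22, limma adjusted p = 0.0173 and 0.0170), against 7.99% of all features. None of the 7 was called higher there, and their median log2 difference was 0.10. The ranges of these 4 lists overlap between the genotypes in each stage. None of the spermatogonium, peritubular, Leydig cell, macrophage or spermatocyte markers was called between KO and WT in either stage. Of all features, 6.89% were called higher and 7.99% lower in round spermatids, and 0.189% and 0.645% in spermatocytes. The part of the listed cells in the results was not tested.

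**Figure D3:**
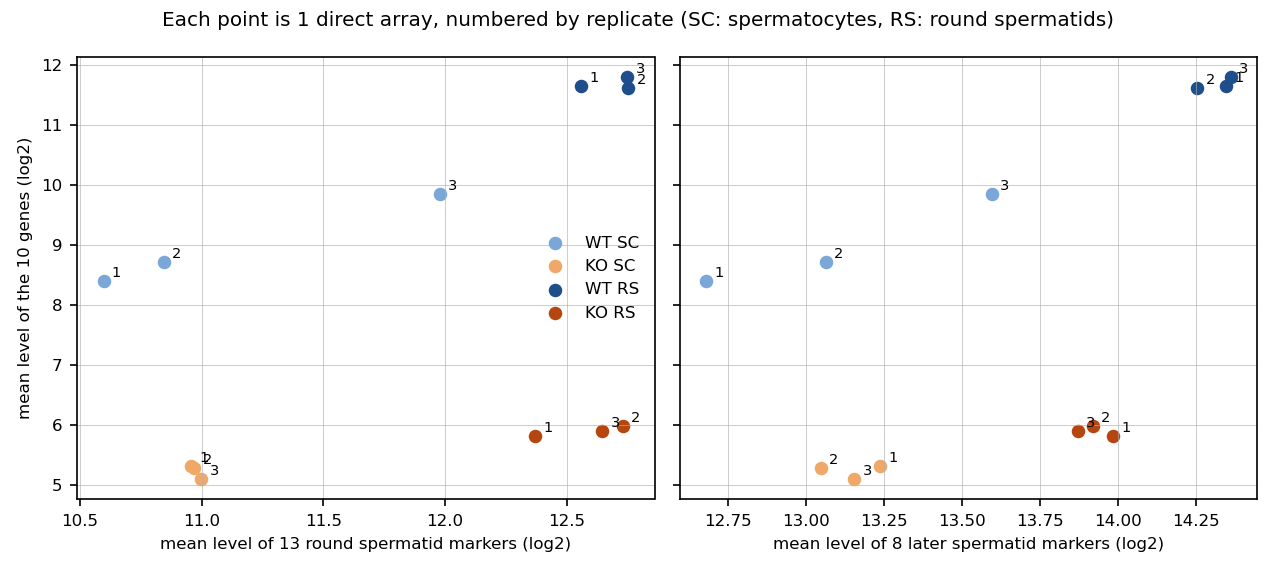
Mean log2 level of the 10 genes (vertical axis) against the mean log2 level of 13 round spermatid markers (left) and 8 later spermatid markers (right) on each of the 12 direct arrays, numbered by replicate. Round spermatid marker means are 10.957 to 10.999 on KO and 10.60 to 11.98 on WT spermatocyte arrays. On these arrays the 10 genes average 5.10 to 5.31 in KO and 8.40 to 9.86 in WT.

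Dydc2 and its neighbour Dydc1, the windows of which are printed above, carry the same DPY30 motif. Of the 2 annotated starts of Dydc2, 1 lies 126 bases from that of Dydc1 and the other 3703 bases. Dydc1 gave log2 levels of 9.23, 9.64 and 9.27 in WT round spermatids and 9.23, 9.23 and 9.28 in KO, detected on every array. Its log2 levels in spermatocytes were 8.07, 7.03 and 7.60 in WT and 7.99, 7.42 and 6.72 in KO. The groups overlap in both stages. Its log2 difference between KO and WT was -0.13 (95% interval -0.81 to 0.54, adjusted p = 0.805) in round spermatids and -0.19 (95% interval -0.87 to 0.49, adjusted p = 0.978) in spermatocytes, beside -6.58 and -5.02 for Dydc2. The intervals of Dydc1 therefore reach no further than -0.87.

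The nearest named genes on the chromosome, 2 on each side of each member, gave 40 genes, of which 32 are on the array and 16 could be tested. In round spermatids 1 of the 16 rose and 1 fell, against 6.89% and 7.99% of all features, and in spermatocytes 0 rose and 0 fell, against 0.189% and 0.645%. Tspan14, a tetraspanin near Dydc2, rose by a log2 difference of 1.05 (SE 0.31, adjusted p = 0.0409), with mean log2 levels of 8.06 (SD 0.06, n = 3) in KO and 7.01 (SD 0.51, n = 3) in WT. The call was lost on leaving out any KO round spermatid array or WT round spermatid replicate 1 or 2 (adjusted p = 0.0556 to 0.162). Cyp2f2, a cytochrome P450 beside Cyp2a12, fell by 1.29 (SE 0.26), from 6.13, 6.68 and 6.31 in WT to 5.68, 4.67 and 4.91 in KO. It was detected on all 3 WT and 1 of 3 KO round spermatid arrays, and on no direct spermatocyte array. Cyp2f2 thus passed the detection filter through WT round spermatids, where it is high, and is given with no p. The log2 differences of the other tested neighbours lay within these, and the median of the 16 was -0.09, against 0.12 over all features.

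All 4 tested neighbours of Tmod4, the genes Vps72, Pip5k1a, Scnm1 and Lysmd1, had log2 differences between -0.10 and 0.42 in round spermatids and did not pass the test. Beside Odf3b, Tymp had -0.47 and Syce3 -0.39, and beside Etv2, Cox6b1 had -0.50, Rbm42 0.34 and Haus5 -0.14, none of which passed. Several neighbours could not be tested for lack of signal. Bpifa1, Bpifa2 and Bpifa5 beside Bpifa3, and Car1 and Car3 beside Car2, were each detected on 0 of 12 direct arrays.

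**Figure D4:**
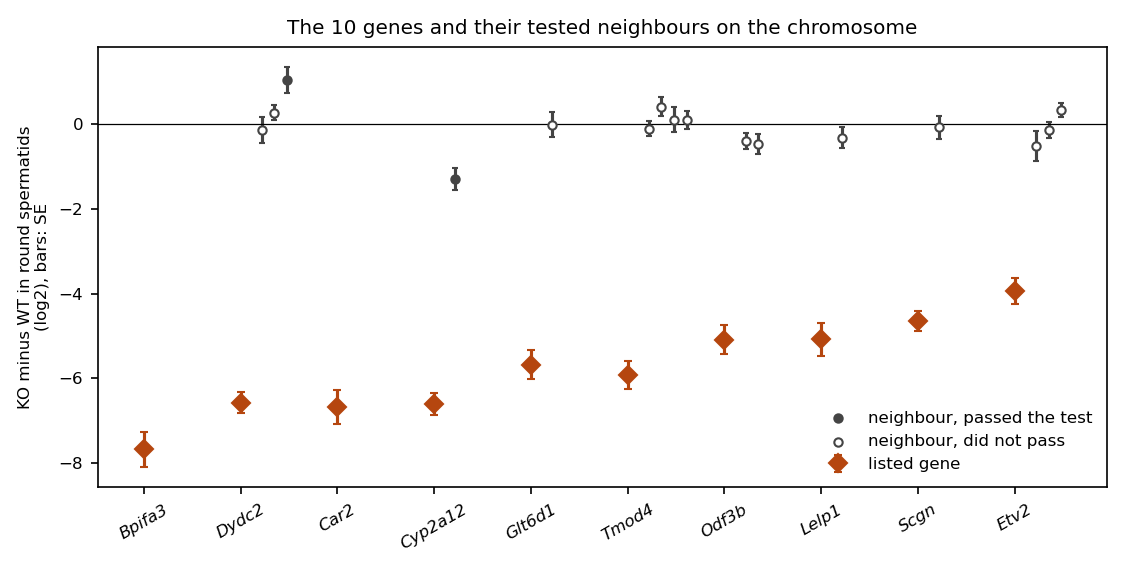
Log2 difference between KO and WT round spermatids with SE (vertical axis) for each of the 10 genes (diamonds) and, to its right, for its tested neighbours on the chromosome (circles, filled where the test was passed). The neighbours lie between -1.29 and 1.05, and the 10 genes between -7.68 and -3.95.

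Relatives in sequence or name numbered 97, of which 89 are on the array and 36 could be tested. In round spermatids 4 of the 36 were called higher and 5 lower in KO, against 6.89% and 7.99% of all features, with a median log2 difference of -0.11. In spermatocytes 1 was called higher and 0 lower, against 0.189% and 0.645%, with a median of -0.07. Of the 9 genes called in round spermatids, 4 (Car9, Car13, Elk4 and Spdef) had a tested probe detected in 1 genotype only. They passed the detection filter through the genotype in which they are high, and their differences are given with no p. Among the 32 relatives whose tested probe was detected in both genotypes, 2 rose and 3 fell in round spermatids and none was called in spermatocytes. Odf1 is also in the later spermatid list, and 11 genes are both relatives and neighbours.

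In the carbonic anhydrase family, which Car2 belongs to, 1 of 6 tested genes was called higher and 1 lower in round spermatids. Of all features, 6.89% and 7.99% were called so. Both genes are among the 4 whose tested probe was detected in 1 genotype only. Car9, a membrane-bound enzyme, was detected only in WT round spermatids, at log2 levels of 5.98, 7.01 and 6.90 against 4.61, 4.56 and 4.46 in KO, at least 2.17-fold lower in KO (log2 difference -2.09). A further Car9 probe gave -2.03, and the last was detected nowhere. No spermatocyte array detected Car9, so no difference could be measured there. Car13, a cytosolic enzyme encoded near Car2, had a log2 difference of 1.22 (at least 1.47-fold higher in KO), from no detected WT array to log2 levels of 6.45, 6.20 and 6.38 in KO. Car4, Car5b, Car12 and Car15 did not pass.

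Of 9 tested ETS factors related to Etv2, 2 were called higher and 1 lower in round spermatids, against 6.89% and 7.99% of all features. Among the called genes, Elk4 and Spdef are of the 4 whose tested probe was detected in 1 genotype only. The tested probe of Elk4 had a log2 difference of 2.37 in round spermatids (at least 2.42-fold higher in KO) and 1.45 in spermatocytes (at least 1.36-fold higher). Its log2 levels were 7.25, 6.90 and 7.05 in KO round spermatids, and no direct WT array detected it. A second Elk4 probe gave 2.09 in round spermatids and another, which was detected on 1 WT spermatocyte array, 0.80. The other 3 of the 6 Elk4 probes were undetected on all direct arrays. Ets1 rose by 0.86 (adjusted p = 0.0119), a call lost without KO round spermatid replicate 3 (0.0583) or WT round spermatid replicate 2 (0.0537). Spdef had a log2 difference of -1.81 (at least 1.96-fold lower in KO) and was detected on the WT round spermatid arrays alone.

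Of the 6 tested outer dense fibre relatives of Odf3b, 1 rose and 0 fell in round spermatids, against 6.89% and 7.99% of all features. Odf3, Odf3l1, Odf1, Odf2 and Odf4 had log2 differences of 0.20, 0.04, -0.31, 0.04 and -0.19 and did not pass, and Odf2l rose by 0.54 (adjusted p = 0.0463), a call lost on leaving out any one round spermatid array other than WT replicate 2 (adjusted p = 0.102 to 0.138). Of the 5 tested relatives of Bpifa3, Bpifb3 fell by 1.30 (adjusted p = 0.0248) and Bpifb2 by 0.93 (adjusted p = 0.0172), against 7.99% of all features called lower. Each of these calls was lost on leaving out some single round spermatid arrays, among them WT replicate 2, without which the log2 differences were -0.94 (adjusted p = 0.101) and -0.79 (adjusted p = 0.0781). Tmod1 and Tmod2 both had -0.28 and did not pass.

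The profile over the 12 direct arrays was nearly common to the 10 genes: Pearson's r of each with the mean of the others ran from 0.980 for Tmod4 to 0.996 for Car2, which describes arrays that share fractions and genotype and follows in part from the choice of genes. Of 9541 other named genes, those most like the mean profile were the cystatin-like gene Cstl1 (r = 0.994), the coagulation factor gene F5 (0.990), the transmembrane gene Tmco5b (0.990), the gene of the surface protein Lypd1 (0.986) and the homeobox gene Prox1 (0.981). F5 and Lypd1 were detected on no KO array of either stage. F5 had log2 levels of 7.92, 7.85 and 8.58 in WT round spermatids and 6.38, 6.36 and 7.05 in WT spermatocytes, and Lypd1 8.32, 9.09 and 9.64 and then 6.72, 6.90 and 8.14. WT spermatocyte replicate 3 was the highest WT spermatocyte array in all 5.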

How the data were processed

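Per the file headers, the deposited non-normalized table holds 1 intensity per probe and array, and a detection p-value per probe and array, inferred here to be against negative control beads. A further deposited table, normalized by quantiles by the authors, also holds an intensity per probe and served as an alternative. The scanner software is not given in the sources used here. Background correction and quantile normalization of the 24 arrays used neqc (limma 3.58.1, R 4.3.3, offset 16), whose log2 offset compresses differences near background. Features detected (p below 0.01) on a minimum of 3 direct arrays were kept, with 1 probe a gene by highest mean, and fitted as 4 groups (lmFit, eBayes), with Benjamini-Hochberg adjustment over 12705 features and calls at 0.05. Direct arrays had median intensities of 136 to 171 and 13849 to 16244 detected probes; the number of arrays limits the precision. The fit was tested on simulated data.

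The members and lists were chosen with earlier results of these data known. Named genes are the members, listed relatives and neighbours called between KO and WT (others only as values), and the 5 of most similar profile. Per the labels, equal numbers mark 1 fractionation within a genotype; residuals of same-numbered stages correlated at 0.04 to 0.41 in KO and -0.20 to 0.25 in WT, and the fits carry no block. Alternatives changed the normalization, background, filter, probes, arrays, block and weights. Promoter windows are RefSeq's.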

Additional observations from a re-analysis of the deposited data

How the results depend on the processing

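The median log2 difference of the 10 genes between KO and WT was negative in every alternative. This contrast chose the genes, and every alternative reuses RNA of the same fractionations, so the sign is no independent support. In round spermatids the median was -4.23 on the deposited normalized values, -4.22 without background correction, -6.14 with cyclic loess and -5.48 on the mixed arrays. On leaving out 1 array it was -5.90 to -5.67. In spermatocytes it was -2.13, -2.11, -3.90 on all 6 arrays a group and -4.07 on the mixed arrays, and -4.01 to -3.17 on leaving out 1 array. All 10 genes were called higher in WT round spermatids than in WT spermatocytes in every alternative. Of all 12705 features, 3604 were called so in the main fit, and 3208 to 4302 in the alternatives that tested as many. In KO the 5 became 1 on the deposited values, 0 without background correction, 8 on the mixed arrays and 3 to 5 on leaving out 1 array. Of all 12705 features, 3351 were called higher in KO in the main fit. In the same alternatives they numbered 3145, 3143, 4549 and 2757 to 3415. With the fractionation as a replicate block the 10 WT and 5 KO calls were the same in number, and so were those of the lists.

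Among relatives in round spermatids, the 4 called higher became 2 with detection on at least 6 arrays, 9 on all 6 arrays, 7 on the mixed arrays, 7 with array weights and 2 to 4 on leaving out 1 array. The 5 called lower became 2 with detection on at least 6 arrays and 3 to 5 on leaving out 1 array. In spermatocytes the 1 called higher became 0 with detection on at least 6 arrays, 5 on all 6 arrays and 7 on the mixed arrays, and the 0 called lower became 3 and 7. Among neighbours in round spermatids, the 1 that rose became 0 with cyclic loess or no filter, 3 on all 6 and on the mixed arrays, and 0 to 1 on leaving out 1 array. The 1 that fell became 2 with cyclic loess, 0 with detection on at least 6 arrays and 2 on the mixed arrays. In spermatocytes 3 fell on all 6 arrays, and 8 fell and 3 rose on the mixed arrays. The calls over all 12705 features moved as well. In round spermatids 875 were called higher in the main fit, 3003 on all 6 arrays, 2360 on the mixed arrays and 2173 with array weights. In spermatocytes 24 were called higher and 82 lower in the main fit. On all 6 arrays these were 1535 and 1993, and on the mixed arrays 2823 and 3162. Mixtures reuse the RNA of the direct arrays, so their spread is too small. Other causes were not tested.

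Cyclic loess moved the median of all features in round spermatids from 0.12 to -0.02 and the share of calls that are lower from 53.7% to 76.3% (38.9% on all 6 arrays, 41.8% on the mixed arrays), and in WT between the stages from 52.9% to 42.4%. At background the array gives bounds only.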

Other observations

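The mixed arrays hold RNA of 2 direct samples, and for each of the 10 genes and 3 mixtures of a group the level can be set beside that expected from equal parts. In WT spermatocytes, whose sources differ most, 19 of 30 values lay between those of the 2 sources, 8 below both and 3 above both, with a median log2 difference between observed and expected of -0.08. In WT round spermatids, whose sources nearly coincide, 5 of 30 lay between, 9 below both and 16 above both. The median there was 0.07, with a range from -0.47 to 0.70. For KO round spermatids 6 of 30 lay between, 6 below both and 18 above both, with a median of 0.19 and a range from -0.57 to 0.96. For KO spermatocytes 6 of 30 lay between, 18 below both and 6 above both, with a median of -0.21 and a range from -1.16 to 0.58. In KO round spermatids 20 of 30 values were detected, and in KO spermatocytes 7 of 30, against 30 of 30 in each WT group. The genes were chosen for low levels in KO, so these counts are no support for the fall. Undetected values lie at background, so their place beside the expected level does not measure the mixing. The 30 values of a group come from 3 mixed arrays and are not independent.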
